A study of Rattus norvegicus and Mus musculus with 12 samples.

Results

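The enzymes that build, sulfate and trim glycosaminoglycan chains were compared between model and control chondrocytes of rat and mouse. The 46 members were chosen by name, as every row of the rat and mouse tables whose gene symbol was on a list of such enzymes. The rule uses no measured value, but the list was drawn up with earlier results of these data known. All 46 symbols were present in both species, among 19687 rat genes and 28603 mouse genes. In rat, the symbol Impad1 stood on 2 rows. The members were sorted into 7 steps, from the supply of sugar and sulfate through the linker, the chondroitin chain and its sulfation, the heparan chain and its modification, to breakdown.

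Articular chondrocytes at passage 1 had been isolated from newborn rats (Sprague–Dawley) and mice (C57BL/6), and 3 RNA-seq libraries were made in each of 4 groups. The chondrocytes of the rat model (RM) and mouse model (MM) groups had received 20 ng/ml IL-1β, an inflammatory cytokine used to imitate the environment of osteoarthritis, for 24 h. The rat control (RC) and mouse control (MC) groups had not. The strain labels of the mouse libraries differ from library to library, whereas the methods name 1 mouse strain, and no label ties a library to an animal or to a culture batch, so P values measure only the spread between these samples.

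Glycosaminoglycans are long sugar chains attached to core proteins such as aggrecan, and their sulfate groups hold the water that lets cartilage bear load. A short linker on a serine of the core protein carries either a chondroitin chain, the main type in cartilage, or a heparan chain, which binds growth factors at the cell surface. The sugar and sulfate donors are made in the cytosol and carried into the Golgi, where polymerases extend the chain and sulfotransferases decorate it.

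The rat libraries held 20169272 to 25903459 counted reads each, and the mouse libraries 16841580 to 20048322. Levels are given as FPKM, which scales the count to gene length and library total, and changes as log2 fold changes from edgeR's quasi-likelihood test on the counts after TMM scaling. TMM sets libraries to the level of the bulk of their genes. Its factors were 0.994 to 1.008 in rat, but 1.099 to 1.104 for MC and 0.905 to 0.911 for MM libraries, so a mouse log2 fold change lies about 0.28 above that of the FPKM. Over all mouse genes tested, the median was -0.295 with library size alone, against -0.02 with TMM. "Rose" and "fell" refer to an adjusted P (Benjamini-Hochberg, over all genes tested) under 0.05, and DEGs are genes that also met criteria taken from the study's methods, whose fold change is read here on the log2 scale, of an FPKM of at least 1, P under 0.05 and a log2 change of 0.85 or more in size.

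The labelled cells and treatment were checked by marker genes. The summed FPKM of 10 chondrocyte genes was 5081 to 5716 in RC and 2009 to 2053 in RM libraries. In mouse this sum was 2404 to 2448 in MC and 210 to 224 in MM libraries. The sum of 6 fibroblast genes, carried mainly by collagens, was 3690 to 4232, 2327 to 2448, 3226 to 3262 and 1087 to 1100 FPKM in the RC, RM, MC and MM groups. Its genes did not move together. In rat Postn rose (log2 fold change 0.90), Thy1 and Pdgfra did not pass, and Col1a1, Col1a2 and Col3a1 fell (-0.90, -0.89 and -0.98). In mouse Col1a1, Col1a2, Thy1 and Postn fell (-1.48, -2.05, -1.56 and -2.89). There Col3a1 (0.16) and Pdgfra (0.26) rose with TMM but were -0.12 and -0.02 with library size alone. IL-1 response genes summed to 60.7 to 67.2 FPKM in RC and 1573 to 1819 in RM libraries. They summed to 44.0 to 45.3 in MC and 17093 to 17606 in MM libraries. This list held 5 genes in rat and 6 in mouse, since Saa3 was absent among the rat genes. Saa3 alone gave 6591 to 6883 FPKM in the MM libraries, so the sums of the 2 species are not like for like. Macrophage and leukocyte genes summed to 7.77 to 8.68 FPKM in RC, 8.76 to 11.9 in RM, 5.19 to 5.94 in MC and 10.2 to 13.1 in MM libraries. Of these genes, Cd68 rose in both species (0.92 in rat, 1.50 in mouse). Csf1r and Lyz2 fell in rat (-1.20 and -0.87) and rose in mouse (0.70 and 1.01), where Csf1r did not pass with library size alone (0.42). The others of this list were not tested. Muscle genes summed to 3.19 to 4.18, 2.67 to 3.07, 3.81 to 4.35 and 0.390 to 0.816 FPKM in the same order, and endothelial genes stayed under 0.505 FPKM. These sums moved with the comparisons below and their part in them was not tested. In these bulk samples, fewer cells of a type and less RNA per cell cannot be told apart.

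After the filter on low counts, 45 members were tested in each species. Chst13, a chondroitin 4-O-sulfotransferase, was not tested, with 0 counts in all rat libraries and totals of 4 MC and 2 MM counts. In rat, 24 members changed, against 35.1% of all genes tested. Of these 18 fell, against 16.8%, and 6 rose, against 18.3%. The median log2 fold change of the members was -0.14, beside 0.01 for all rat genes tested. Only Ugdh was an upregulated DEG, against 4.64% of all genes tested, and Extl1 and Impad1 were downregulated DEGs, against 3.90%, or 3 DEGs against 8.54% in either direction.

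In mouse, 35 members changed, against 75.0% of all genes tested. Of these 19 fell, against 37.7%, and 16 rose, against 37.4%, so that the shares were near those of the background. The median was -0.10, beside -0.02 for all mouse genes tested. Replicates lay closer together in mouse than in rat. The common biological coefficient of variation from edgeR, a relative spread between replicates, was 0.0318 in mouse and 0.106 in rat. A change of a given size therefore passes more readily in mouse, and a member that did not pass in rat may still have changed. With library size alone, 29 mouse members fell, against 54.7% of all genes tested, and 9 rose, against 25.0%. By the DEG criteria, 6 members were upregulated (Ugdh, Sulf1, Ext1, Chst11, Xylt1 and Hs3st1), against 12.6% of all genes tested. Hs3st1, also among the 16 that rose, passed the filter on low counts through the MM libraries, so its call supports nothing further. The downregulated DEGs were Extl1, Slc26a2, Csgalnact1, Chsy3, Papss2 and Hs6st2, 6 members against 13.0%, which makes 12 DEGs against 25.6% in either direction.

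**Figure D1:**
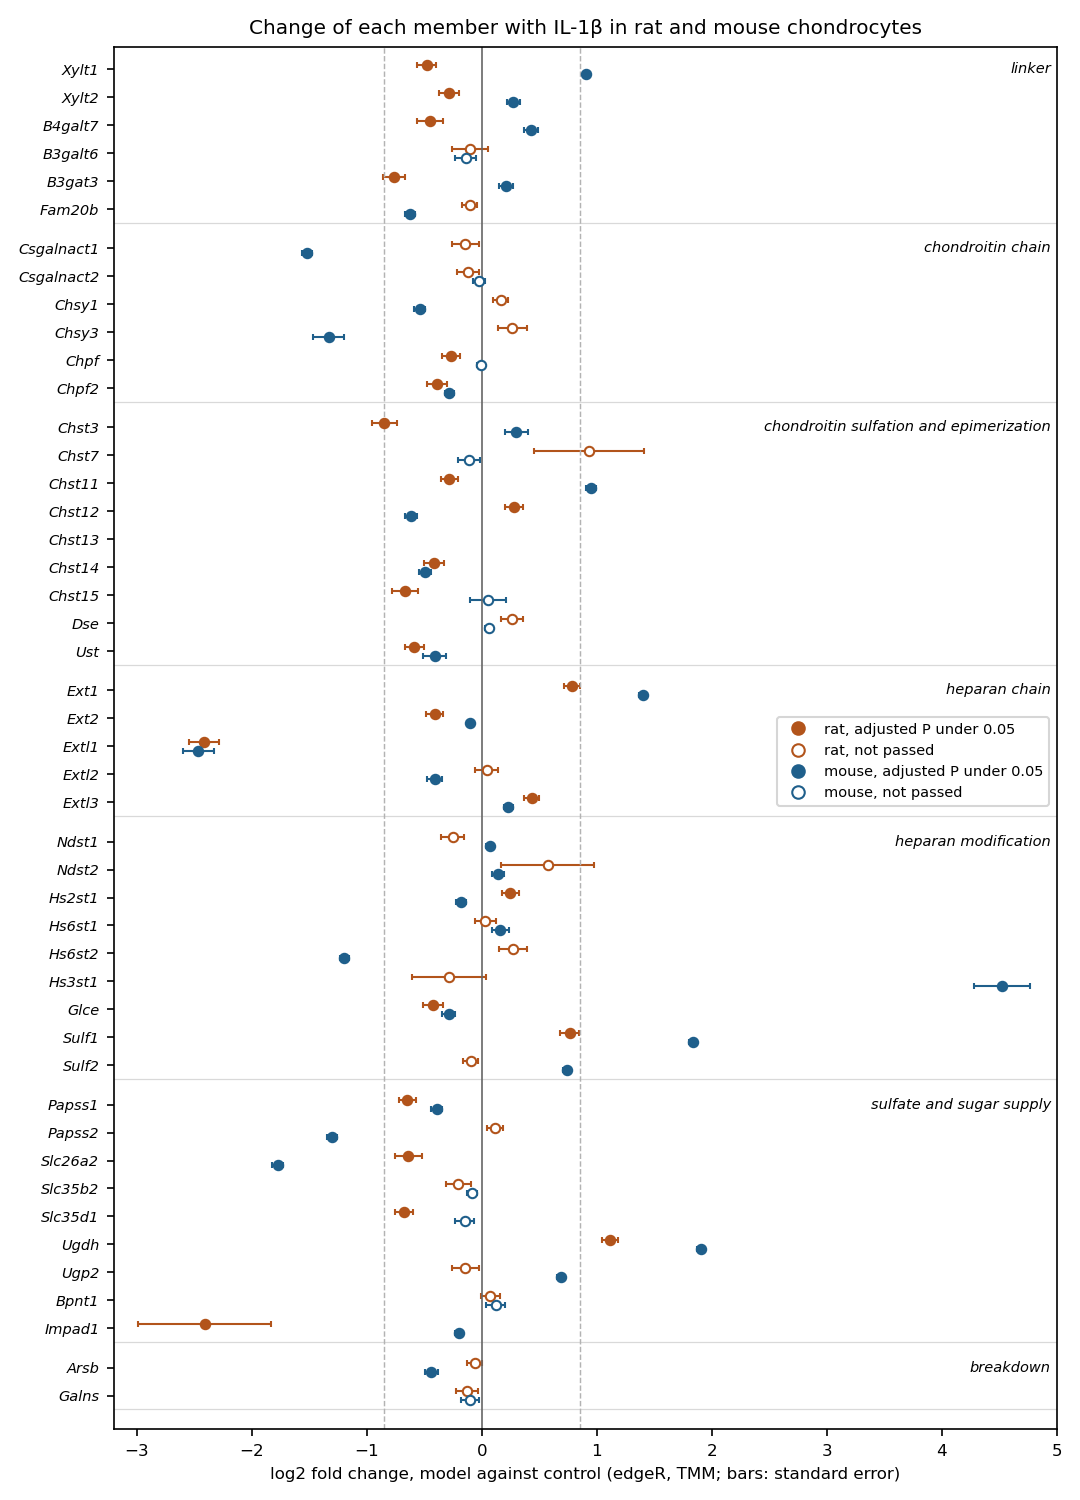
Log2 fold change of each member, model against control, in rat and mouse, grouped by step (points: edgeR estimate with TMM scaling; bars: standard error; filled: adjusted P under 0.05; dashed lines: 0.85 in either direction). Extl1 lies near -2.4 in both species and Ugdh above 1 in both, whereas Xylt1, Chst11, Csgalnact1, Papss2 and Hs6st2 lie far apart, and Chst13 has no point.

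Among the enzymes that supply sugar and sulfate, Ugdh rose in both species, and the sulfate genes Papss2 and Slc26a2 fell in mouse. Ugdh oxidizes UDP-glucose to UDP-glucuronic acid, a building block of chondroitin, heparan and hyaluronan. Its FPKM was 40.3, 36.7 and 39.4 in the RC libraries and 85.5, 83.4 and 86.2 in the RM libraries. In mouse Ugdh was 35.9, 37.2 and 39.3 in the MC libraries and 115, 115 and 117 in the MM libraries. The model group stood well above its control in both species. For Ugdh, the log2 fold change was 1.12 (SE 0.068, adjusted P = 9.43e-07) in rat and 1.91 (SE 0.030, adjusted P = 1.21e-54) in mouse. The change was larger in mouse by 0.79 (SE 0.070, adjusted P = 4.14e-08), in a fit of all 12 libraries that subtracts the rat change from the mouse change. By that test 63.7% of all 10951 shared genes tested differed between the species.

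Ugp2, which makes UDP-glucose one step earlier, rose in mouse and did not pass in rat. Its FPKM was 119, 84.1 and 94.9 in the RC libraries and 92.0, 96.8 and 83.1 in the RM libraries, and these groups overlapped. In mouse Ugp2 was 40.5, 40.4 and 43.2 in the MC libraries and 55.0, 55.7 and 54.3 in the MM libraries, without overlap. For Ugp2, the log2 fold change was -0.15 (adjusted P = 0.363) in rat and 0.69 (adjusted P = 7.62e-26) in mouse, and the difference of 0.84 passed (adjusted P = 3.35e-05).

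Papss2 makes PAPS, the sulfate donor of all sulfotransferases, and its loss impairs skeletal growth. Its FPKM was 87.5, 80.4 and 83.0 in the RC libraries and 89.4, 97.8 and 87.8 in the RM libraries. In mouse Papss2 was 38.9, 40.1 and 39.4 in the MC libraries and 13.5, 12.9 and 13.2 in the MM libraries. The MM libraries lay near 13 FPKM, far under the MC libraries, while the rat groups lay side by side. For Papss2, the log2 fold change was 0.12 (SE 0.070, adjusted P = 0.226) in rat and -1.30 (SE 0.043, adjusted P = 7.53e-37) in mouse, a difference of -1.42 (SE 0.078, adjusted P = 8.70e-11).

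Slc26a2, the transporter that brings sulfate into chondrocytes, fell in both species. Its FPKM was 27.5, 22.7 and 22.7 in the RC libraries and 13.3, 16.8 and 17.2 in the RM libraries. In mouse Slc26a2 was 9.98, 11.3 and 10.4 in the MC libraries and 2.64, 2.38 and 2.62 in the MM libraries. No model library reached a control library of its species. For Slc26a2, the log2 fold change was -0.64 (SE 0.115, adjusted P = 0.00165) in rat and -1.78 (SE 0.050, adjusted P = 2.17e-40) in mouse, with a difference of -1.14 (adjusted P = 1.75e-06).

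The other PAPS synthase, Papss1, fell from 80.6 ± 3.79 to 52.0 ± 2.74 FPKM in rat (SD, n = 3; log2 fold change -0.65) and from 29.5 ± 0.973 to 18.6 ± 1.14 FPKM in mouse (SD, n = 3; -0.39). The difference of 0.26 passed (adjusted P = 0.0160), but with library size alone it was -0.04. Slc35d1, which carries UDP-glucuronic acid and UDP-N-acetylgalactosamine toward the Golgi, fell in rat from 21.2 ± 1.19 to 13.4 ± 0.433 FPKM (SD, n = 3; -0.68, adjusted P = 7.14e-05). In mouse its log2 fold change of -0.15 did not pass, but -0.43 with library size alone did. Neither Slc35b2, which carries PAPS into the Golgi, nor Bpnt1, which removes the cytosolic by-product of sulfation, passed in either species with TMM. In mouse Slc35b2 fell with library size alone (-0.37, adjusted P = 1.23e-11). Without RC1, Slc35b2 passed in rat (-0.33, adjusted P = 0.00307), and without MC1, MC3 or MM3 it passed in mouse (-0.11 to -0.10), while without MM2 Bpnt1 passed in mouse (0.20, adjusted P = 0.0382).

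Impad1 removes the same by-product in the Golgi, and its rat values were uneven. On the row with more reads, its FPKM was 5.34, 3.85 and 0.651 in the RC libraries and 0.657, 0.550 and 0.676 in the RM libraries. RC3, with 28 reads, lay within the range of the RM group, whose libraries had 27 to 33 reads, so the groups overlapped although the log2 fold change of -2.41 (SE 0.58) passed (adjusted P = 0.00889). Left-out libraries moved it from -2.89 (without RC3) to -1.89 (without RC1). The other rat row had 29 RC reads, all in RC2, and 3 RM reads, and how reads are split between the rows is uncertain. In mouse, Impad1 was 37.7, 37.8 and 38.8 FPKM in the MC libraries and 26.9, 27.2 and 27.9 in the MM libraries, a log2 fold change of -0.20 (adjusted P = 2.04e-07). Of the 9 supply members, 1 rose and 4 fell in rat, with a median of -0.20, against 18.3% and 16.8% of all genes tested. In mouse 2 rose and 4 fell, with a median of -0.15, against 37.4% and 37.7%. With library size alone these were 2 and 6 (median -0.43), against 25.0% and 54.7%.

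The rat promoters of Ugdh and Papss2 are shown because Ugdh rose in both species, while Papss2 fell in mouse and did not pass in rat. Both sequences are RefSeq's, on GRCr8 and 5′ to 3′ on the strand of the gene, and run from 250 bases before the annotated start to 50 bases after it.
Ugdh, chr14:43202268-43202567, plus strand: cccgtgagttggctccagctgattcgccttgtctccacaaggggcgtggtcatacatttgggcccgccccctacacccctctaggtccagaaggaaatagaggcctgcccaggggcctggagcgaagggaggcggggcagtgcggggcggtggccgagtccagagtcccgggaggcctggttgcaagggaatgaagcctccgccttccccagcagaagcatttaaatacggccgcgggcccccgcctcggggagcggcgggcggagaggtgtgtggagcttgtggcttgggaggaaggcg
Papss2, chr1:239867463-239867762, plus strand: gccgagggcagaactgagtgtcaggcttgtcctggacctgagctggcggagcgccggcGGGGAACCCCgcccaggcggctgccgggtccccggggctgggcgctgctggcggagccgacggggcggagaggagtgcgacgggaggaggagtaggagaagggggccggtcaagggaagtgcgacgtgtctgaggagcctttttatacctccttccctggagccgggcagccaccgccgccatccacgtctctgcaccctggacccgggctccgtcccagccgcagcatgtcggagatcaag
Capitals mark a match to the NF-κB consensus of 10 bases, the motif of a factor that IL-1β activates. Each promoter was searched on both strands for 3 motifs, the NF-κB consensus, TGANTCA (AP-1) and ACAAAG (SOX). Of the 46 members, 36 had a rat promoter in the RefSeq table. The NF-κB consensus was in 6 of these promoters (B4galt7, Chpf, Papss2, Slc26a2, Sulf2 and Ust), beside 5.06% of 27457 rat promoters. TGANTCA was in 0 of the 36, beside 7.33%, and ACAAAG was in 3 (Chst3, Chsy1 and Ust), beside 18.3%. The Ugdh promoter held no match. A match describes letters only, and no binding was measured.

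**Figure D2:**
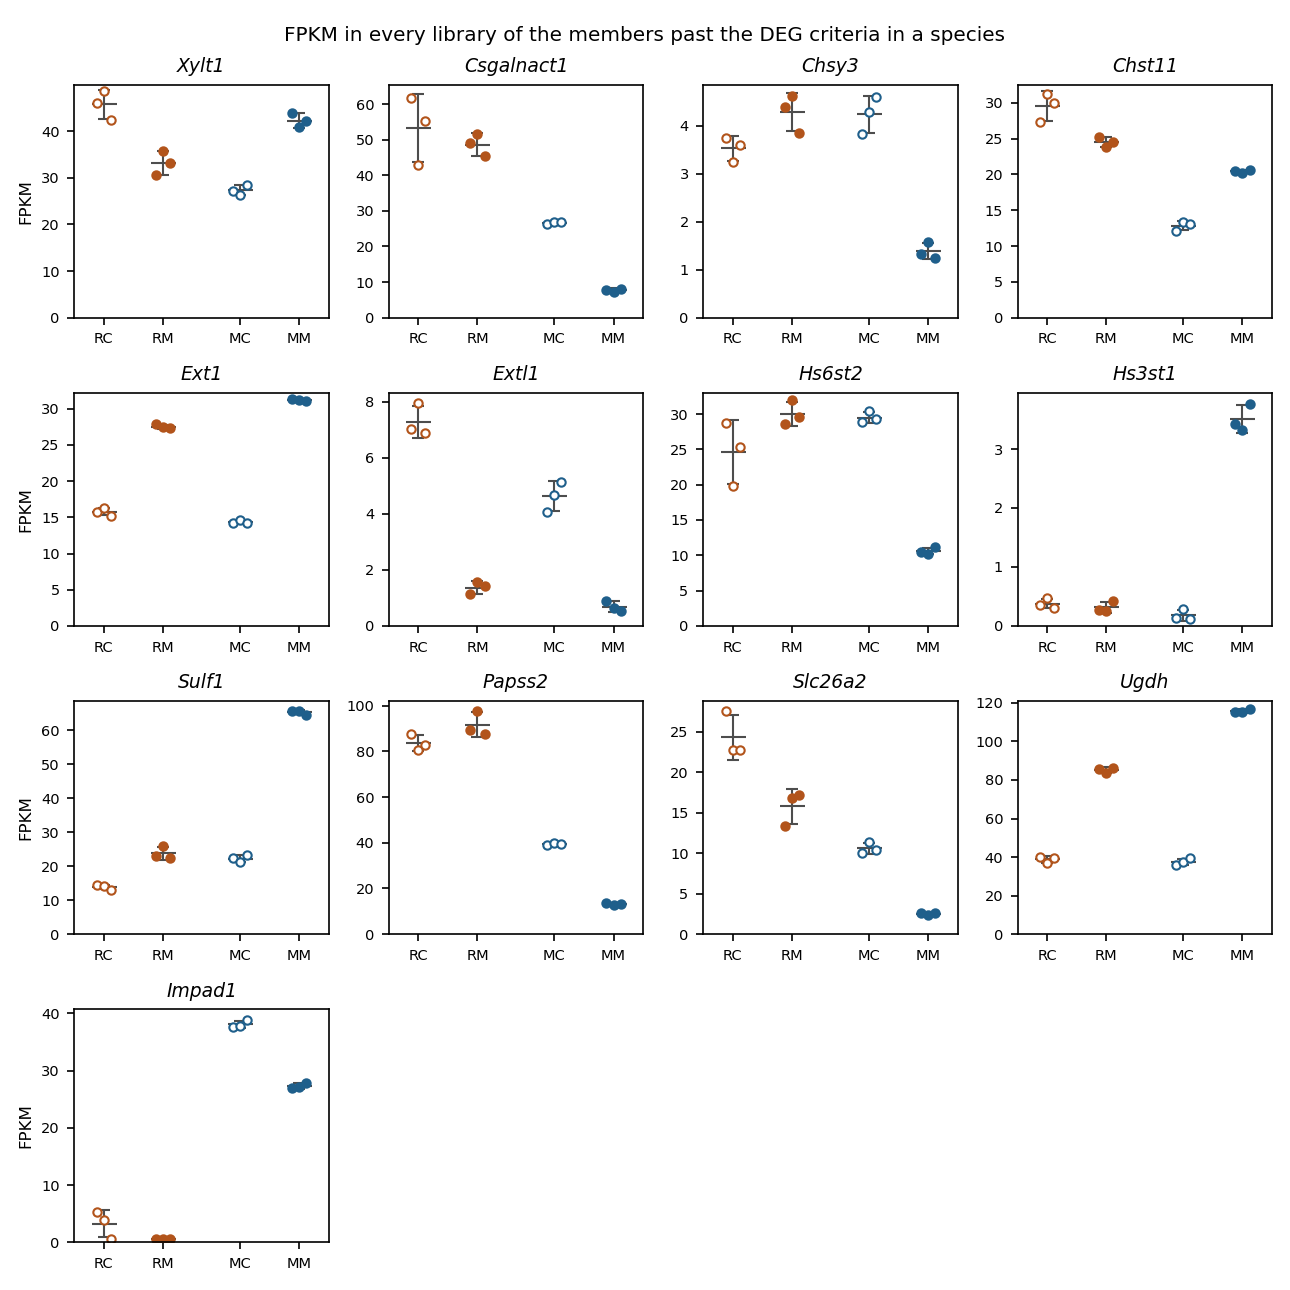
FPKM in every library of the 13 members that passed the DEG criteria in at least 1 species (y axis: FPKM from 0; x axis: group; open points: control; filled points: model; bars: mean ± SD, n = 3). Ugdh, Ext1 and Sulf1 are higher and Extl1 and Slc26a2 lower in the model groups of both species, while for Papss2, Csgalnact1 and Hs6st2 only the MM group stands below its control.

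In the linker step, 4 of 6 members fell in rat and none rose, with a median of -0.37, against 16.8% and 18.3% of all genes tested. In mouse 4 rose and 1 fell, with a median of 0.24, against 37.4% and 37.7%. With library size alone 2 rose and 2 fell there, with a median of -0.04, against 25.0% and 54.7%. Xylt1 transfers the xylose that starts every chain. Its FPKM was 46.03, 48.7 and 42.5 in the RC libraries and 30.5, 35.8 and 33.1 in the RM libraries. In mouse Xylt1 was 27.1, 26.4 and 28.5 in the MC libraries and 43.9, 40.8 and 42.1 in the MM libraries. All RM libraries lay under all RC libraries, and all MM libraries lay above all MC libraries. For Xylt1, the log2 fold change was -0.48 (SE 0.085, adjusted P = 0.00152) in rat and 0.91 (SE 0.032, adjusted P = 4.01e-35) in mouse, or 0.63 with library size alone. The difference of 1.39 (SE 0.092) passed (adjusted P = 9.81e-10).

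B3gat3, which adds the glucuronic acid that completes the linker, had the highest level of the step in rat. Its FPKM was 73.8, 81.1 and 86.7 in the RC libraries and 49.9, 42.4 and 51.7 in the RM libraries, without overlap (log2 fold change -0.76, SE 0.094, adjusted P = 0.000139). In mouse B3gat3 was 25.5, 24.5 and 24.0 in the MC libraries and 23.5, 23.7 and 23.3 in the MM libraries, so the model libraries were slightly lower per library total. With TMM the mouse log2 fold change was 0.21 (adjusted P = 0.00119) and with library size alone -0.07, so its direction in mouse depends on the scaling. The difference between the species was 0.97 with TMM (adjusted P = 6.91e-07) and 0.68 with library size alone.

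B4galt7, which adds the galactose next to the xylose, was 15.9, 19.1 and 21.1 FPKM in the RC libraries and 14.01, 12.6 and 15.0 in the RM libraries. Its FPKM was 11.7, 11.2 and 12.2 in the MC libraries and 12.3, 13.7 and 13.1 in the MM libraries. The ranges of B4galt7 did not overlap in either species. For B4galt7, the log2 fold change was -0.45 (adjusted P = 0.0117) in rat and 0.43 (adjusted P = 1.08e-08) in mouse. Without RC3 or RM2 the rat call of B4galt7 was lost (-0.35 and -0.39, adjusted P = 0.0580 and 0.0570).

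Xylt2, the other xylosyltransferase, was 15.6, 18.0 and 16.6 FPKM in the RC libraries and 13.0, 13.6 and 15.0 in the RM libraries. Its FPKM was 11.4, 11.6 and 11.6 in the MC libraries and 11.7, 11.3 and 11.5 in the MM libraries, which overlapped. For Xylt2, the log2 fold change was -0.28 (adjusted P = 0.0270) in rat and 0.27 (adjusted P = 7.90e-06) in mouse, where it was -0.01 with library size alone. Without RC2, RC3, RM1 or RM2 the rat call of Xylt2 was lost, with log2 fold changes of -0.29 to -0.23. Fam20b, the kinase that phosphorylates the linker xylose, fell in mouse from 13.6 ± 0.487 to 7.25 ± 0.168 FPKM (SD, n = 3; log2 fold change -0.62, adjusted P = 1.23e-20). In rat it changed by -0.11 (adjusted P = 0.229). B3galt6, which adds the other galactose, did not pass in either species, at -0.10 in rat and -0.14 in mouse, or -0.42 with library size alone, which passed (adjusted P = 2.72e-05). In mouse it passed without MC3 or MM2 (-0.21 and -0.23).

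Of the 6 enzymes that start and extend the chondroitin chain, 4 fell and none rose in mouse, against 37.7% and 37.4% of all genes tested. All 6 fell there with library size alone, against 54.7% of all genes tested. The median log2 fold change was -0.41 in mouse (-0.69 with library size alone). In rat it was -0.13, and 2 fell and none rose, against 16.8% and 18.3%. Csgalnact1 adds the N-acetylgalactosamine that commits a linker to chondroitin. Its FPKM was 61.6, 42.8 and 55.2 in the RC libraries and 49.0, 51.6 and 45.3 in the RM libraries, which overlapped. In mouse Csgalnact1 was 26.4, 26.8 and 26.8 in the MC libraries and 7.77, 7.09 and 8.19 in the MM libraries, far apart. For Csgalnact1, the log2 fold change was -0.14 (SE 0.119, adjusted P = 0.374) in rat and -1.52 (SE 0.046, adjusted P = 1.13e-38) in mouse, with a difference of -1.37 (SE 0.141, adjusted P = 2.40e-07). Without RC2 it also passed in rat (-0.28, adjusted P = 0.0281). Its relative Csgalnact2 did not pass in either species, at -0.12 in rat and -0.03 in mouse with TMM. In mouse Csgalnact2 fell with library size alone (-0.30, adjusted P = 1.52e-07), where it was 11.3 ± 0.0485 and 9.15 ± 0.290 FPKM without overlap (SD, n = 3).

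Chsy3, one of the chondroitin polymerases, was 3.74, 3.24 and 3.60 FPKM in the RC libraries and 4.38, 4.63 and 3.84 in the RM libraries. In mouse Chsy3 was 3.83, 4.27 and 4.60 in the MC libraries and 1.33, 1.57 and 1.25 in the MM libraries. The RM libraries were slightly above the RC libraries, and the MM libraries were far below the MC libraries. For Chsy3, the log2 fold change was 0.27 (adjusted P = 0.122) in rat and -1.33 (SE 0.134, adjusted P = 8.72e-14) in mouse, a difference of -1.60 (adjusted P = 4.94e-07). Chsy1, the more abundant polymerase, changed from 29.2 ± 0.570 to 33.0 ± 1.18 FPKM in rat (SD, n = 3; 0.16, adjusted P = 0.0821). In mouse Chsy1 fell from 20.6 ± 1.31 to 11.7 ± 0.580 FPKM (SD, n = 3; -0.54, adjusted P = 2.85e-15).

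Chpf, a partner that the polymerases need for long chains, was 44.5, 52.2 and 50.2 FPKM in the RC libraries and 40.6, 39.8 and 43.1 in the RM libraries. In mouse Chpf was 48.3, 48.4 and 46.1 in the MC libraries and 38.2, 39.6 and 39.5 in the MM libraries. Neither species showed overlap in FPKM. For Chpf, the log2 fold change was -0.27 (adjusted P = 0.0240) in rat and -0.01 (adjusted P = 0.905) in mouse, or -0.28 with library size alone. The rat call of Chpf was lost without RC2, RC3, RM1 or RM2 (-0.26 to -0.22). Its difference between the species was 0.26 with TMM (adjusted P = 0.0124) and -0.03 with library size alone. Chpf2 fell in both species (-0.39 in rat, -0.28 in mouse), but 44.1% of its exonic bases in mouse overlap other genes, mainly Smarcd3 on the other strand. Whether strand was used in counting is not stated, so the mouse value of Chpf2 is uncertain.

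Of the 8 members tested that sulfate or epimerize chondroitin, 1 rose and 5 fell in rat (median -0.35), against 18.3% and 16.8% of all genes tested. In mouse 2 rose and 3 fell (median -0.03), against 37.4% and 37.7%. With library size alone 1 rose and 5 fell in mouse (median -0.31), as many as in rat, but against 25.0% and 54.7%. Chst11 is the main chondroitin 4-O-sulfotransferase of cartilage. Its FPKM was 27.2, 31.3 and 30.0 in the RC libraries and 25.2, 23.8 and 24.6 in the RM libraries. In mouse Chst11 was 12.1, 13.3 and 13.1 in the MC libraries and 20.4, 20.1 and 20.6 in the MM libraries. The RM libraries lay under the RC libraries and the MM libraries well above the MC libraries. For Chst11, the log2 fold change was -0.28 (adjusted P = 0.0175) in rat and 0.95 (SE 0.042, adjusted P = 1.09e-29) in mouse, or 0.67 with library size alone, and the difference of 1.23 passed (adjusted P = 2.29e-09). Without RC3, RM2 or RM3 the rat call of Chst11 was lost (-0.28 to -0.26).

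Chst12, another 4-O-sulfotransferase, moved the other way. It was 53.5, 61.2 and 57.3 FPKM in the RC libraries and 73.9, 66.2 and 71.2 in the RM libraries. In mouse Chst12 was 32.4, 31.9 and 31.1 in the MC libraries and 16.8, 17.9 and 16.5 in the MM libraries. Its rat groups were close but did not overlap, and its mouse groups stood far apart. For Chst12, the log2 fold change was 0.28 (adjusted P = 0.0182) in rat and -0.62 (adjusted P = 3.30e-17) in mouse, with a difference of -0.90 (adjusted P = 1.92e-07). Without RC3, RM1 or RM3 the rat call of Chst12 was lost (0.25 to 0.28). The mouse calls of Chst11 and Chst12 passed with any 1 library left out.

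Chst3, the main chondroitin 6-O-sulfotransferase, was 4.54, 4.42 and 3.89 FPKM in the RC libraries and 2.22, 2.67 and 2.32 in the RM libraries. In mouse Chst3 was 2.26, 1.93 and 2.05 in the MC libraries and 2.03, 1.99 and 2.32 in the MM libraries. The rat libraries separated by group and the mouse libraries overlapped. For Chst3, the log2 fold change was -0.85 (SE 0.106, adjusted P = 0.000163) in rat, just short of the DEG threshold before rounding, and 0.30 (adjusted P = 0.00519) in mouse. With library size alone the mouse value of Chst3 was 0.02 and did not pass (adjusted P = 0.851), and the difference between the species was 1.15 with TMM and 0.85 without. Chst7, the other 6-O-sulfotransferase, rested on 29 RC and 56 RM reads in rat (0.93, SE 0.47, adjusted P = 0.154), and was 7.80 ± 0.829 and 5.96 ± 0.653 FPKM in the MC and MM groups (SD, n = 3; -0.11, adjusted P = 0.284, or -0.39 with library size alone, which passed). In rat, Chst7 passed the filter on low counts through the RM libraries, since RC2 and RC3 had 5 reads each. Without RC1 its log2 fold change was 1.77, but only RC2 and RC3 then remained as controls, so this value supports nothing further.

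Chst14, the dermatan 4-O-sulfotransferase, fell in both species (-0.41 in rat, -0.49 in mouse), as did Ust, which sulfates uronic acid (-0.59 in rat, -0.41 in mouse). Chst15, which adds a further sulfate to 4-sulfated N-acetylgalactosamine, fell in rat from 4.77 ± 0.387 to 3.03 ± 0.259 FPKM (SD, n = 3; -0.67, adjusted P = 0.00112). In mouse Chst15 was below 1 FPKM in both groups with a log2 fold change of 0.05 (adjusted P = 0.762), or -0.23 with library size alone. Dse, the epimerase that makes dermatan, was 28.2, 22.0 and 24.2 FPKM in the RC libraries and 29.8, 31.6 and 29.0 in the RM libraries. In mouse Dse was 29.1, 28.5 and 29.7 in the MC libraries and 25.5, 24.6 and 24.9 in the MM libraries. For Dse, the log2 fold change was 0.27 (adjusted P = 0.0510) in rat, where it passed as higher with every other scaling, filter and tool tried and without RC1 (0.35, adjusted P = 0.000879), and 0.06 (adjusted P = 0.125) in mouse, or -0.22 with library size alone.

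The heparan chain step held the largest fall shared by both species. Extl1, a glycosyltransferase related to the heparan polymerases, was 7.01, 7.95 and 6.87 FPKM in the RC libraries and 1.13, 1.56 and 1.42 in the RM libraries. In mouse Extl1 was 4.07, 4.67 and 5.14 in the MC libraries and 0.898, 0.637 and 0.515 in the MM libraries. Every model library was far under every control library of its species. For Extl1, the log2 fold change was -2.42 (SE 0.128, adjusted P = 4.13e-07) in rat and -2.47 (SE 0.134, adjusted P = 2.15e-25) in mouse, and the difference of -0.05 (SE 0.224) did not pass (adjusted P = 0.848). Across all genes, 3.86% of those tested in both species were DEGs in the same direction in both, and of the members these were Extl1 and Ugdh. The rat promoter of Extl1 is shown as the counterpart of that of Ugdh, from RefSeq on GRCr8, and held no match to any of the 3 motifs.
Extl1, chr5:151872781-151873080, minus strand: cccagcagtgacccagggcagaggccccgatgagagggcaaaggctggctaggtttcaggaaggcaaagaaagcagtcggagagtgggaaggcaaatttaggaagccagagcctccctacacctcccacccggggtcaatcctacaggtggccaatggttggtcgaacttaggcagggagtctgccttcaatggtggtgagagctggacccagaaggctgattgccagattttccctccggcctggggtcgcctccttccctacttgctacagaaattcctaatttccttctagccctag

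Ext1 and Ext2 form the heparan polymerase together, and their levels moved in opposite directions. Ext1 was 15.8, 16.3 and 15.2 FPKM in the RC libraries and 27.9, 27.4 and 27.3 in the RM libraries. In mouse Ext1 was 14.2, 14.6 and 14.2 in the MC libraries and 31.3, 31.3 and 31.0 in the MM libraries. Both model groups lay well above their controls, with a log2 fold change of 0.79 (SE 0.069, adjusted P = 1.34e-05) in rat and 1.40 (SE 0.035, adjusted P = 1.28e-43) in mouse. The rise of Ext1 was larger in mouse by 0.61 (adjusted P = 5.26e-07). Ext2 was 84.0, 95.4 and 85.8 FPKM in the RC libraries and 64.4, 69.0 and 68.3 in the RM libraries. In mouse Ext2 was 34.5, 33.5 and 34.0 in the MC libraries and 26.1, 25.8 and 26.5 in the MM libraries. All model libraries lay under their controls, and the log2 fold change of Ext2 was -0.41 (adjusted P = 0.00149) in rat and -0.10 (adjusted P = 0.00495) in mouse.

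Extl3, which starts the heparan chain, rose in rat from 53.3 ± 3.29 to 72.7 ± 1.38 FPKM (SD, n = 3; 0.43, adjusted P = 0.000764). In mouse Extl3 was 16.5 ± 0.484 and 16.0 ± 0.679 FPKM in the MC and MM groups (SD, n = 3), with a log2 fold change of 0.23 with TMM (adjusted P = 1.38e-06) and -0.05 with library size alone. Extl2 fell in mouse (-0.41, adjusted P = 4.40e-08) and not in rat (0.04, adjusted P = 0.775). Of the 5 members of the step, 2 rose and 2 fell in rat (median 0.04), against 18.3% and 16.8% of all genes tested. In mouse 2 rose and 3 fell (median -0.10), against 37.4% and 37.7%. With library size alone these were 1 and 3 (median -0.38), against 25.0% and 54.7%.

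Among the enzymes that modify heparan, Hs3st1 was near 0 in 3 groups and higher in the MM group. Hs3st1 is the 3-O-sulfotransferase known for making the antithrombin-binding site of heparin. Its FPKM was 0.358, 0.467 and 0.312 in the RC libraries and 0.269, 0.254 and 0.420 in the RM libraries. In mouse Hs3st1 was 0.131, 0.293 and 0.125 in the MC libraries and 3.42, 3.32 and 3.77 in the MM libraries. The MC values rest on 5, 11 and 5 reads and the MM values on 153, 145 and 147, so Hs3st1 passed the filter on low counts through the MM libraries. A member that passes in this way is tested only because 1 group is high. The mouse test of Hs3st1 therefore supports nothing further, and the size of its change rests on few control reads. For Hs3st1, the log2 fold change was -0.28 (adjusted P = 0.530) in rat and an estimated 4.52 (SE 0.25) in mouse, or 4.30 to 5.01 with 1 library left out. In GRCm38, Hs3st1 lies on the minus strand of chr5:39613935-39755475, and no exonic base of it overlaps another gene.

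Hs6st2, a heparan 6-O-sulfotransferase, was 28.8, 19.8 and 25.4 FPKM in the RC libraries and 28.6, 31.9 and 29.6 in the RM libraries. In mouse Hs6st2 was 28.9, 30.4 and 29.3 in the MC libraries and 10.5, 10.2 and 11.1 in the MM libraries. The rat groups overlapped and the MM group stood far under the MC group. For Hs6st2, the log2 fold change was 0.27 (adjusted P = 0.112) in rat, where it passed without RC1 (0.38, adjusted P = 0.00363), and -1.20 (SE 0.038, adjusted P = 1.04e-37) in mouse, with a difference of -1.46 (adjusted P = 5.58e-08). Hs6st1 did not pass in rat (0.03) and was 0.16 in mouse with TMM (adjusted P = 0.0487) but -0.12 with library size alone. Its mouse call was lost without MC1, MC2, MC3, MM1 or MM2 (0.13 to 0.17).

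Sulf1 and Sulf2 are extracellular sulfatases that remove the 6-O-sulfate again. Sulf1 was 14.4, 14.1 and 13.1 FPKM in the RC libraries and 22.9, 26.0 and 22.4 in the RM libraries. In mouse Sulf1 was 22.3, 21.2 and 23.2 in the MC libraries and 65.7, 65.5 and 64.5 in the MM libraries. Both model groups were clearly above their controls, with a log2 fold change of 0.76 (SE 0.082, adjusted P = 5.62e-05) in rat and 1.83 (SE 0.030, adjusted P = 1.62e-53) in mouse. The rise of Sulf1 was larger in mouse by 1.07 (adjusted P = 1.15e-08). Sulf2 was 54.7, 58.2 and 54.1 FPKM in the RC libraries and 51.9, 53.7 and 52.2 in the RM libraries, close to each other but without overlap (-0.10, adjusted P = 0.266). In mouse Sulf2 was 51.5, 55.0 and 55.0 in the MC libraries and 75.1, 73.4 and 73.8 in the MM libraries, a rise of 0.74 (adjusted P = 9.17e-32).

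Hs2st1, the heparan 2-O-sulfotransferase, was 26.5, 24.8 and 23.5 FPKM in the RC libraries and 29.9, 30.0 and 30.0 in the RM libraries. In mouse Hs2st1 was 10.1, 9.55 and 9.71 in the MC libraries and 6.90, 7.02 and 7.43 in the MM libraries. The groups were apart in both species, in opposite directions, with a log2 fold change of 0.25 (adjusted P = 0.0204) in rat and -0.18 (adjusted P = 0.000391) in mouse. The rat call of Hs2st1 was lost without RC3, RM1, RM2 or RM3 (0.21 to 0.25). Glce, the epimerase that precedes this sulfation, fell in both species (-0.42 in rat, -0.29 in mouse).

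Ndst1 and Ndst2 replace acetyl by sulfate groups at the start of modification. In rat Ndst2 was nearly absent, with 23 RC and 35 RM reads, and Ndst1 was 20.4 ± 1.93 and 17.3 ± 1.86 FPKM (SD, n = 3; -0.26, adjusted P = 0.0665). The rat value of Ndst1 passed without RC1 (-0.33) or RM3 (-0.34). In mouse Ndst1 was 0.07 (adjusted P = 0.0414) and Ndst2 0.14 (adjusted P = 0.0116) with TMM, but -0.21 and -0.14 with library size alone, and the call of Ndst1 was lost without MC2, MC3, MM1 or MM3 (0.05 to 0.08). Of the 9 modifying members, 2 rose and 1 fell in rat (median 0.03), against 18.3% and 16.8% of all genes tested. In mouse 6 rose and 3 fell (median 0.14), against 37.4% and 37.7%. The 6 include Hs3st1, whose call supports nothing further. With library size alone the balance turned in mouse, where 3 rose and 5 fell (median -0.14), against 25.0% and 54.7%.

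The lysosomal sulfatases Arsb and Galns, which remove the 4-O- and 6-O-sulfates of chondroitin, did not pass in rat. Arsb was 39.4, 42.3 and 40.9 FPKM in the RC libraries and 40.2, 39.1 and 39.5 in the RM libraries, which overlapped (-0.06, adjusted P = 0.503). In mouse Arsb was 10.3, 10.4 and 10.6 in the MC libraries and 6.24, 6.95 and 5.87 in the MM libraries (-0.44, adjusted P = 1.56e-10). Of the exonic bases of mouse Arsb, 39.9% overlap other annotated genes on the other strand. Galns was -0.13 in rat and -0.11 in mouse with TMM, and neither passed. In mouse Galns fell with library size alone (-0.39, adjusted P = 1.00e-05), and its FPKM of 9.44 ± 0.230 and 7.21 ± 0.569 did not overlap (SD, n = 3).

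Because pairs of members do related work, their FPKM ratio was also taken within each library, where the scaling cancels. There were 20 ratios, 10 pairs in each species. Where model and control did not overlap, the exact permutation test (two-sided) gave P = 0.1, the smallest that 3 libraries against 3 allow (0.133 after Benjamini-Hochberg adjustment). No ratio passed, and how often other pairs of genes separate in this way was not computed. The ratio of Ext1 to Ext2 had geometric means of 0.179 in RC, 0.410 in RM, 0.422 in MC and 1.19 in MM libraries. That of Sulf1 to Sulf2 was 0.249 in RC, 0.451 in RM, 0.412 in MC and 0.880 in MM libraries. The ratio of Chst11 to Chst3 was also higher in the model group of both species, at 6.89 and 10.2 in rat and 6.18 and 9.68 in mouse, although both members fell in rat and Chst11 rose in mouse. Papss1 to Papss2 was lower in RM (0.568) than in RC libraries (0.963) and higher in MM (1.41) than in MC libraries (0.748). Differences of ratios between the species were not tested. Csgalnact1 to Csgalnact2 went from 2.36 to 0.838 in mouse, and its rat libraries overlapped at 1.80 and 1.78.

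**Figure D3:**
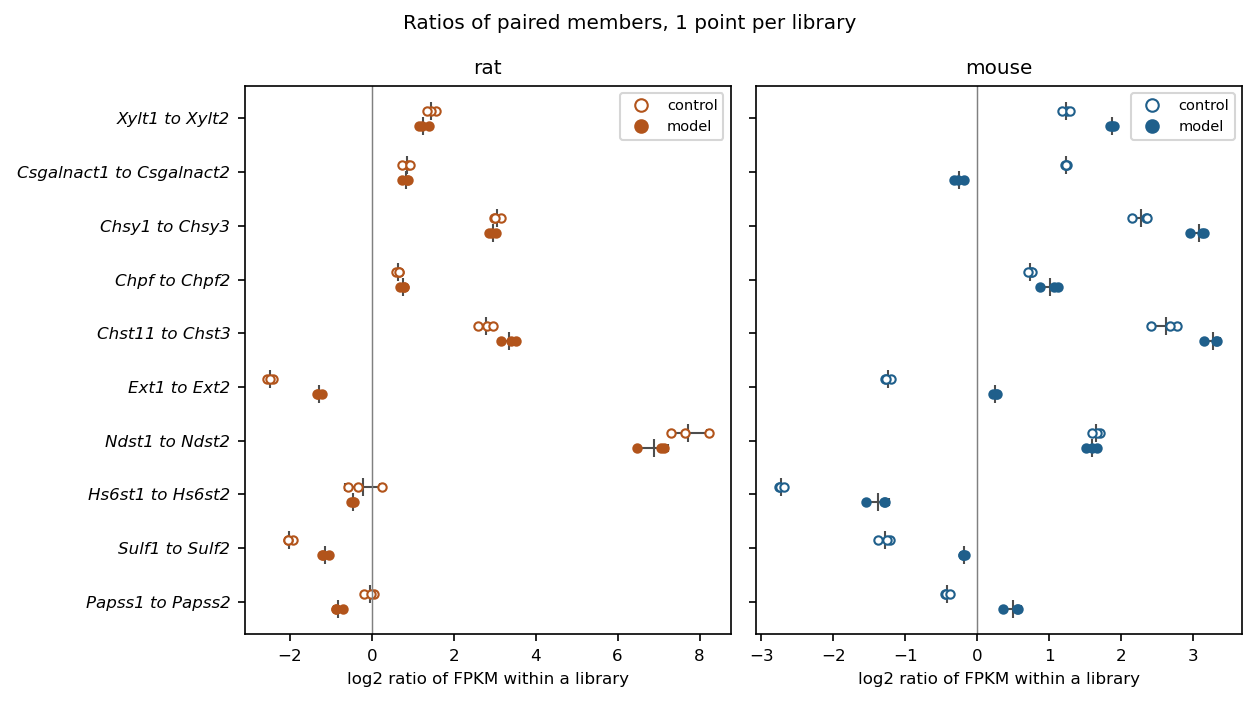
Log2 ratio of FPKM of 10 pairs of members within each library, for rat and mouse (open points: control; filled points: model; ticks and bars: mean ± SD, n = 3). Ext1 to Ext2 and Sulf1 to Sulf2 lie to the right of their controls in both species, and Papss1 to Papss2 lies to the left in rat and to the right in mouse.

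Set beside each other, 4 members rose in both species (Ugdh, Ext1, Sulf1 and Extl3), against 9.28% of all shared genes tested, and 9 fell in both (Chpf2, Chst14, Ust, Ext2, Extl1, Glce, Papss1, Slc26a2 and Impad1), against 10.1%. The direction of Extl3 in mouse turns with library size alone. The members that fell in rat and rose in mouse were 6 (Xylt1, Xylt2, B4galt7, B3gat3, Chst3 and Chst11), against 5.18%. With library size alone the mouse direction of Xylt2 and B3gat3 turns and Chst3 no longer passes, while Xylt1, B4galt7 and Chst11 still pass. Chst12 and Hs2st1 rose in rat and fell in mouse, against 7.28%, so that 8 members moved in opposite directions, against 12.5%. Passing in neither species were 7 members (B3galt6, Csgalnact2, Chst7, Dse, Slc35b2, Bpnt1 and Galns), against 15.8%. All of these but Bpnt1 fell in mouse with library size alone. By the test of the difference itself, 32 of 45 members (71.1%) differed between the species, beside 63.7% of all shared genes tested, with the change in mouse above that in rat for 19 (against 31.4%) and below it for 13 (against 32.3%). These counts were 14 (against 20.0%) and 15 (against 49.5%) with library size alone. With either scaling they include Hs3st1 and Chst7, whose calls support nothing further. Hs3st1 passed the filter on low counts through the MM libraries, and Chst7 passed it in rat through the RM libraries.

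**Figure D4:**
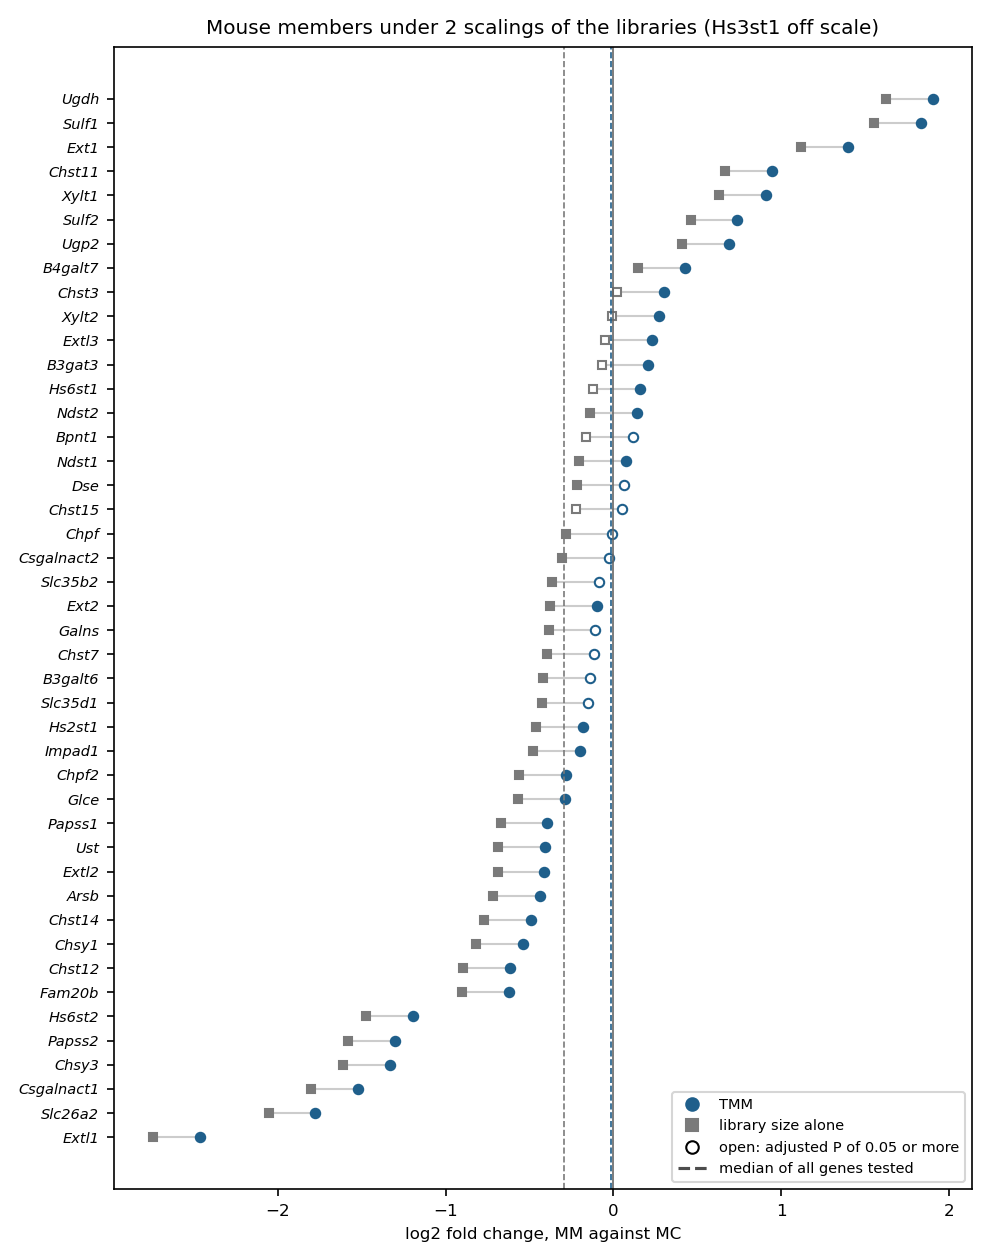
Log2 fold change of the mouse members, MM against MC, with TMM (circles) and with library size alone (squares), sorted by the TMM value (open: adjusted P of 0.05 or more; dashed lines: medians of all genes tested, -0.02 and -0.295). Hs3st1, at 4.52 and 4.25, is off the scale. Every member shifts by about the same amount, which carries Xylt2, Extl3, B3gat3, Hs6st1, Ndst2, Bpnt1, Ndst1, Dse and Chst15 across 0.

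Other genes of the pathway, not among the members, were counted from 2 further lists. Of the other synthesis genes, 24 were tested in rat, where 6 rose and 8 fell, and 25 in mouse, where 7 rose and 15 fell. In both species and both directions, these counts include genes that passed the filter on low counts through 1 group. The calls of such genes support nothing further, with either scaling. Of the other breakdown genes, 13 were tested in rat, where 1 rose and 7 fell, and 15 in mouse, where 8 rose and 6 fell. Of all genes tested, 18.3% rose and 16.8% fell in rat, and 37.4% rose and 37.7% fell in mouse. With library size alone, 5 of the other synthesis genes rose and 17 fell in mouse. Of the breakdown genes 4 rose and 7 fell there, so their balance turned, against 25.0% and 54.7% of all mouse genes. The largest contrasts, by the P of the difference, included Uap1 and Gfpt2, enzymes of UDP-N-acetylglucosamine supply, which rose in rat by 0.46 and 0.45 and in mouse by 1.75 and 1.88. Ndst3 rose in rat (0.55) and was -1.40 in mouse, where it had 79 MC and 27 MM reads. In mouse it passed the filter on low counts through the MC libraries, so its mouse value and its contrast support nothing further. The hyaluronidase Hyal1 fell in rat (-0.40) and rose in mouse (1.63), and heparanase, Hpse, was -0.20 in rat (adjusted P = 0.340) and rose in mouse (1.68).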

How the data were processed

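RNA-seq libraries of rat and mouse articular chondrocytes were compared between 4 groups of 3 (RC, RM, MC and MM). For each species, the authors deposited raw counts per Ensembl gene and library, without normalization. They also deposited FPKM values, which equalled the count divided by gene length and library total within 0.1%. The submitters' processing notes name HISAT2, HTSeq 0.11.2, GRCm38 and Rnor_6.0. The use of strand in counting is not stated, so overlapping and antisense genes cannot be told apart.

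Counts were tested with edgeR 4.0.16 under R 4.3.3 (filterByExpr, TMM, glmQLFit and glmQLFTest), each species separately, with Benjamini-Hochberg adjustment of P over all genes tested. The species were compared in 1 joint fit of 10951 genes that carry the same symbol and were tested in both. This fit used 1 estimate of the spread for both species, although replicates differed more in rat. Counts were simulated with 200 changed genes in each species, all given the same log2 size up or down, and with 1 spread for all genes of a species. Of the changed genes tested, edgeR recovered 98.98% in rat (13296 genes), 99.48% in mouse (14683 genes) and 97.67% for the difference (10940 genes). False calls made up 3.96%, 3.98% and 2.97% of its calls in that order. The median log2 estimate of the changed genes was 1.513, 1.502 and 1.507 in that order. Recovery of smaller log2 fold changes was not tested. Scaling was not tested on counts with as many changed genes as in mouse. Alternatives were RLE scaling, library size alone, no filter, DESeq2 1.42.0, limma 3.58.1 on log2(FPKM + 1) and log2(FPKM + 0.1), a replicate block, other DEG criteria and leaving out each library. Mouse coordinates and overlaps come from GENCODE M21, an annotation of GRCm38.

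FPKM of every library were given for members past the DEG criteria in a species, for the most abundant member of each step and for members called in opposite directions. Of the other lists, at most 3 genes each with the smallest P of the difference were named. A gene that this rule picks is not reported here. The members and lists were chosen with earlier results of these data known. With 3 libraries against 3, an exact permutation test cannot give a P under 0.1.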

Additional observations from a re-analysis of the deposited data

Results flagged for a closer look

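The results below are listed because the change of a member with IL-1β differed between the species by the test of the difference itself, in 1 edgeR fit of all 12 libraries with Benjamini-Hochberg adjustment over 10951 shared genes, of which 63.7% passed. Each value is the log2 change in mouse minus that in rat. No group had more than 3 libraries, so no library was tested for standing apart.

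The change in mouse was above that in rat for 19 members. In the linker step the differences were 1.39 for Xylt1, 0.56 for Xylt2, 0.87 for B4galt7 and 0.97 for B3gat3. In the chondroitin steps they were 0.26 for Chpf, 1.15 for Chst3, 1.23 for Chst11 and 0.72 for Chst15. In the heparan steps they were 0.61 for Ext1, 0.31 for Ext2, 0.33 for Ndst1, 1.07 for Sulf1 and 0.84 for Sulf2. The value of 4.81 for Hs3st1 rests on few MC reads. Hs3st1 passed the filter on low counts through the MM libraries, so its difference supports nothing further. In the supply step they were 0.26 for Papss1, 0.53 for Slc35d1, 0.79 for Ugdh, 0.84 for Ugp2 and 2.24 for Impad1, whose rat value rests on uneven control libraries.

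The change in mouse was below that in rat for 13 members. The differences were -0.52 for Fam20b, -1.37 for Csgalnact1, -0.70 for Chsy1, -1.60 for Chsy3, -1.02 for Chst7 and -0.90 for Chst12. In the heparan steps they were -0.45 for Extl2, -0.20 for Extl3, -0.43 for Hs2st1 and -1.46 for Hs6st2. The remaining differences were -1.42 for Papss2, -1.14 for Slc26a2 and -0.38 for Arsb. In rat, Chst7 passed the filter on low counts through the RM libraries, so its difference supports nothing further. The difference of Chst7 was lost without RC2, RC3, RM1, RM3 or any of MC2, MC3, MM1 and MM2 (-1.01 to -0.71). That of Extl3 was lost without RC1, RM1, RM3, MC3, MM1 or MM2 (-0.20 to -0.14).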

How the results depend on the processing

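Scaling was the setting that changed most in mouse. With library size alone and with limma on log2(FPKM + 1) or log2(FPKM + 0.1), which carry no TMM factor, 9 mouse members rose and 29 fell, against 16 and 19 with TMM, and 4 rather than 6 were upregulated DEGs, since Xylt1 and Chst11 fell short of 0.85, while downregulated DEGs went from 6 to 8, 7 and 8. With library size alone 25.0% of all mouse genes rose and 54.7% fell, and the members whose change in mouse was above or below that in rat were 14 and 15, against 20.0% and 49.5% of shared genes. In those 3 settings, in that order, the mouse log2 fold change turned to -0.0054, -0.0047 and -0.0051 for Xylt2, to -0.0699, -0.0668 and -0.0692 for B3gat3, and to -0.22, -0.21 and -0.22 for Dse. It turned to -0.0493, -0.0450 and -0.0475 for Extl3, -0.21, -0.20 and -0.20 for Ndst1, -0.14, -0.13 and -0.14 for Ndst2, and -0.12, -0.10 and -0.12 for Hs6st1. The difference between the species turned with library size alone to -0.0343 for Chpf and -0.0397 for Papss1, and was no longer past the threshold for Ext2 (0.02), Ndst1 (0.03) and Slc35d1 (0.23).

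In rat, Dse passed with library size alone, RLE scaling, no filter, DESeq2 and both limma settings (0.26 to 0.29), and Impad1 did not pass with limma (-1.19 and -1.80). In mouse, Hs6st1 did not pass with no filter or with DESeq2 (0.17 in each). Leaving out each library in turn gave 4 to 9 members that rose in rat and 14 to 20 that fell, 14 to 16 and 19 to 21 in mouse, and 19 to 21 and 11 to 13 members whose change in mouse was above or below that in rat.

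Replicate numbers did not pair the libraries, since the deviations of same-numbered libraries from their group means correlated at -0.10 to 0.08 in rat and 0.0012 to 0.015 in mouse. With the replicate number as a block, 6 members rose and 18 fell in rat, 16 rose and 19 fell in mouse, and no member's call changed. Depth limits Hs3st1 in MC libraries and Chst7 and Ndst2 in rat, where few reads stand behind a group.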
